A study of Mus musculus with 48 samples.

Results

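The immunity-related GTPases described here are Irgm1, Irgm2, Igtp, Ifi47, Tgtp1 and Tgtp2, mouse genes that belong to 1 family of interferon-inducible GTPases. They were taken by symbol from a list of 7 names, and 6 of these were rows of the 39637 genes in the deposited count table. Iigp1 is not analysed here. Transcripts were counted in 48 whole tumours, each from a different mouse, to compare mice that went on to respond to checkpoint antibodies with mice that did not. The AB1 line is a mouse mesothelioma and the Renca line a mouse kidney cancer. Cells of either line were injected under the skin of female BALB/c mice aged 8 to 9 weeks. AB1 tumours were taken out on day 8 and Renca tumours on day 10. Removal preceded dosing with CTLA4 and PD-L1 antibodies, so no tumour measured here had been exposed to them. The labels then give a response class for each mouse. This gives 4 groups of 12 mice: AB1 responders, AB1 non-responders, Renca responders and Renca non-responders. Every group carried the same host strain and the same treatment label, and AB1 and Renca are each a single cell line.

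Immunity-related GTPases are made in large amounts when cells receive interferon gamma, which acts on their promoters through gamma-activated sites and interferon-stimulated response elements. The proteins bind to membranes. In infected cells the effector members gather on the vacuoles that hold parasites such as Toxoplasma, together with guanylate-binding proteins, while the Irgm proteins sit on the cell's own membranes and hold the effectors inactive there. In tumours these genes are known as readouts of interferon signalling in cancer cells, stromal cells and immune cells alike.

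The table gave 16.4 to 27.8 M counts per library (M for mega). The line identities were checked against defining markers. The renal tubule genes Pax2, Pax8 and Cdh16 were present in all Renca libraries, with medians in non-responders of 20.2, 53.6 and 278 counts per M counts (CPM), and were at or under 0.135 CPM in AB1. Umod, a marker of one segment of the tubule, was at 0 in every library. Of the mesothelial markers, Upk3b and Lrrn4 had medians of 0 and 0.0438 CPM in AB1 responders and Wt1 a median of 1.43 CPM, so these markers were at or near 0 in AB1 tumours. One AB1 non-responder, replicate 3, had the highest summed keratinocyte markers (352 CPM) and skeletal muscle markers (2626 CPM) of its group, against group medians of 5.17 and 699 CPM. AB1 non-responder 7 also stood apart in keratinocyte markers, at 288 CPM.

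The family falls into classes by the first nucleotide-binding loop of the GTPase domain, where the members known as regulators carry methionine at a position that is lysine in the effectors. The codons of that loop were read from the GENCODE M21 coding sequences and are shown because they place each member in its class. Each line gives the 24 bases of the loop, with the codon of that position in capitals.
Irgm1: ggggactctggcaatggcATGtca
Irgm2: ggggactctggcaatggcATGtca
Igtp: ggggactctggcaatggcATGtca
Ifi47: gggcagtctgggactggcAAGtcc
Tgtp1: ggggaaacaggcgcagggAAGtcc
Tgtp2: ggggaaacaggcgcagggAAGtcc
Irgm1, Irgm2 and Igtp (the last also called Irgm3) had the methionine codon, and Ifi47, Tgtp1 and Tgtp2 the lysine codon. The loop was identical in all 24 bases among the first 3 genes. The coding sequences of Irgm2 and Igtp were 71.5% identical over their 1198 aligned bases, and those of Irgm1 and Ifi47 55.2% over 1189. Tgtp1 and Tgtp2 differed at 4 of 1245 coding bases.

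That likeness limits what the counts can separate. Of all 50-base stretches of Tgtp1 transcripts, 81.2% also occurred in another gene, almost all of them in Tgtp2, and for Tgtp2 the share was 86.6%. How the authors' counting divided such reads is not given in the sources used here. The counts of Tgtp1 and Tgtp2 are therefore uncertain, and the pair is best read as 1 measurement. Raw counts of Tgtp1 divided by those of Tgtp2 stayed between 0.933 and 1.02 in all 48 libraries. Igtp and Irgm2 lie on the same strand with 162 shared exon bases, which are 8.01% of the exon bases of Igtp and 4.39% of those of Irgm2, so some of their reads could have been assigned to either. Tgtp1 likewise shares 223 exon bases with Gm12185, a further gene of the family. Ifi47 shares 4.81% and Irgm1 0.379% of their 50-base stretches with other genes.

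All 6 members lie on chromosome 11 of GRCm38 in a pair of groups. Irgm1 (ENSMUSG00000046879, chr11:48861968-48871683, minus strand), Tgtp1 (ENSMUSG00000078922, chr11:48985327-48994172, minus), Tgtp2 (ENSMUSG00000078921, chr11:49057194-49064206, minus) and Ifi47 (ENSMUSG00000078920, chr11:49076587-49096974, plus) form the first. Igtp (ENSMUSG00000078853, chr11:58199556-58207591, plus) and Irgm2 (ENSMUSG00000069874, chr11:58199618-58222782, plus) form the second, and GENCODE places Igtp almost wholly within the span of Irgm2.

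The promoters of the members were searched for both interferon elements, because all 6 members were higher in responders of both tumours. A gamma-activated site was searched as TTCNNNGAA and the core of the interferon-stimulated response element as GAAA, any 2 bases and GAAA again, on both strands, in the RefSeq (GRCm38.p6) window from 250 bases before to 50 after each start. Each line below shows 60 bases on the gene's strand, with the matches in capitals.
Irgm1, chr11:48871421-48871480, minus strand: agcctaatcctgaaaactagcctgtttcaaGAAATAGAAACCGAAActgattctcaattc
Irgm2, chr11:58214883-58214942, plus strand: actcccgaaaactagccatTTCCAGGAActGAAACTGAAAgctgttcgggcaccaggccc
Igtp, chr11:58199492-58199551, plus strand: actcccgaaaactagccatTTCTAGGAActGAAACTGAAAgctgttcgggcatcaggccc
Tgtp1, chr11:48992294-48992353, minus strand: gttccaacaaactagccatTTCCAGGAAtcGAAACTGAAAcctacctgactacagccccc
Tgtp2, chr11:49064253-49064312, minus strand: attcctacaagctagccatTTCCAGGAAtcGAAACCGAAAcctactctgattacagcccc
In Irgm2, Igtp, Tgtp1 and Tgtp2 a gamma-activated site match stood 2 bases upstream of a response element match. The Irgm1 window had a pair of overlapping response element matches and no gamma-activated site match, and Ifi47 had neither set of letters in its window. Among 32851 promoters of the same length, 8.3% held the gamma-activated site letters, 3.44% the response element letters, 0.454% both, and 0.131% both within 10 bases of each other. These matches describe letters only. RefSeq and GENCODE do not place every start alike. The stretches shown for Irgm1, Irgm2 and Tgtp1 lie inside the GENCODE spans given above. That of Irgm2 lies far downstream of its GENCODE start, which is beside the start of Igtp.

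Irgm1, a regulator known for its roles in autophagy and resistance to mycobacteria, was highest in AB1 responders. In AB1 responders it ran from 567 CPM through a median of 1181 to 1319 CPM, where CPM are scaled by the trimmed mean of M values (TMM). AB1 non-responders ran from 191 through 443 to 1285 CPM. All AB1 responders but replicate 12 lay together between 1033 and 1319 CPM, and replicate 12 lay apart below them. Renca responders ran from 305 through 456 to 638 CPM, and Renca non-responders from 150 through 256 to 562 CPM. All 12 responders of each tumour lay above the median of their non-responders, yet the ranges overlapped in both tumours.

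Irgm2, a regulator on the Golgi, was lower in counts but followed the same order of groups. It ran from 376 through 755 to 854 CPM in AB1 responders and from 114 through 278 to 878 CPM in AB1 non-responders. In Renca the responders ran from 200.3 through 297 to 405 CPM and the non-responders from 102 through 165 to 370 CPM. No AB1 responder exceeded the highest AB1 non-responder, which was above all 12 of them, whereas 3 Renca responders exceeded every Renca non-responder.

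Igtp, the regulator found on the endoplasmic reticulum and lipid droplets, varied more among non-responders than the other regulators did. AB1 responders ran from 583 through 1321 to 1559 CPM and AB1 non-responders from 145 through 407 to 1488 CPM. Renca responders ran from 244 through 415 to 635 CPM and Renca non-responders from 101 through 193 to 547 CPM. The highest AB1 non-responder was 10.3 times the lowest, against 2.67 times in AB1 responders.

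Ifi47, an effector also called Irgd and required against some intracellular parasites, separated the tumours more than any other member. In AB1 it ran from 349 through 878 to 921 CPM in responders and from 126 through 282 to 838 CPM in non-responders. In Renca it ran from 109 through 174 to 243 CPM in responders and from 56.5 through 86.0 to 225 CPM in non-responders. The lowest AB1 responder thus lay above the highest Renca responder, and 8 of 12 AB1 responders exceeded every AB1 non-responder.

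Tgtp1 and Tgtp2, effectors first described as a T cell-specific GTPase and also called Irgb6, had the highest CPM of the family. Tgtp1 ran from 724 through 1829 to 2060 CPM in AB1 responders and from 161 through 522 to 1801 CPM in AB1 non-responders. In Renca it ran from 451 through 776 to 1154 CPM in responders and from 162 through 343 to 966 CPM in non-responders. The medians of Tgtp2 were 1874 CPM in responders and 551 CPM in non-responders for AB1, and 770 and 344 CPM for Renca. These values lay close to those of Tgtp1 in every group, and the shared sequence does not let the counts tell the genes apart. For Tgtp2, 6 of 12 AB1 responders exceeded every AB1 non-responder, and for Tgtp1 8 did.

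**Figure D1:**
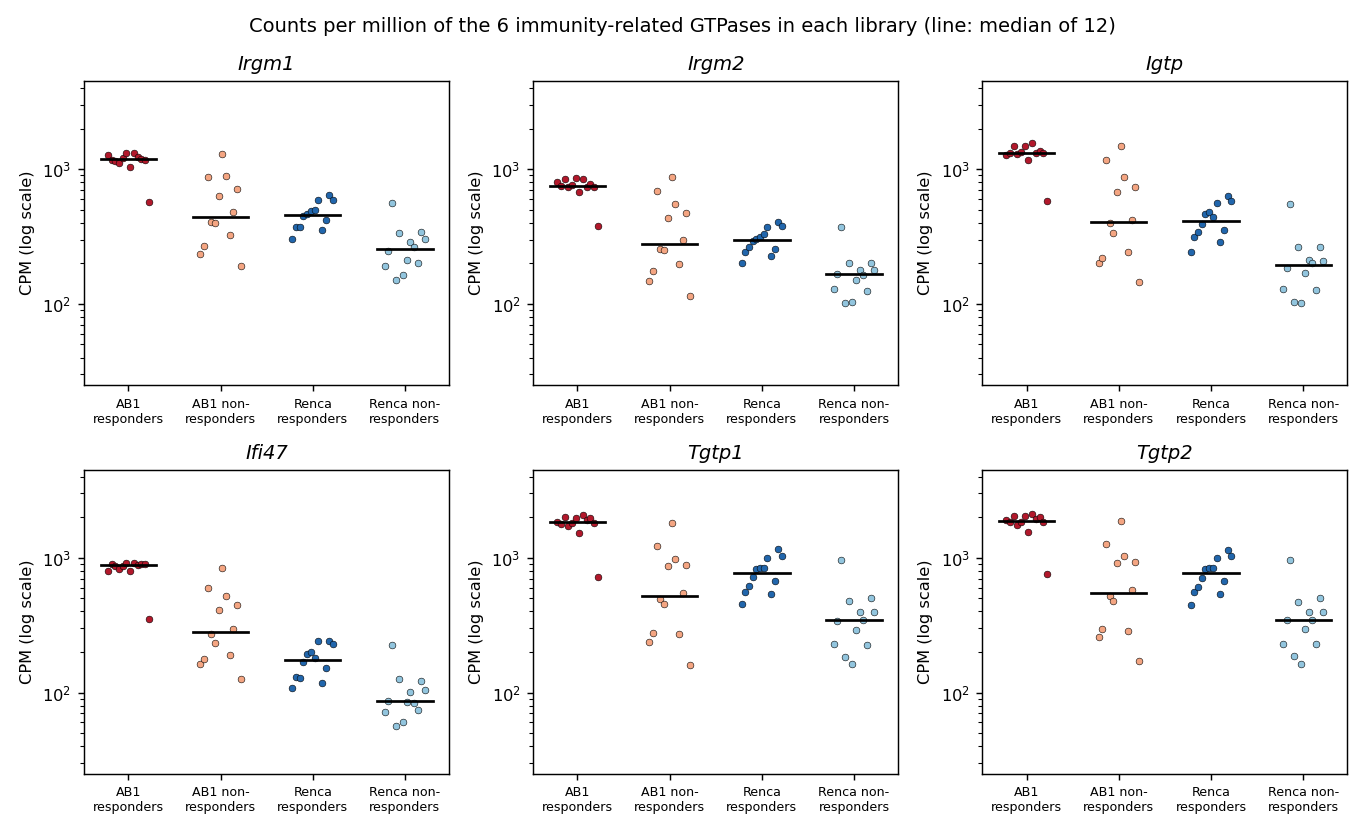
Each point is 1 library, the vertical axis is CPM on a log scale, the 4 columns of each panel are the groups of 12 mice and the black line is the group median. All AB1 responders but replicate 12 form a narrow band for each gene, while AB1 non-responders are spread over a range of 6.62-fold (Ifi47) to 11.2-fold (Tgtp1).

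Some libraries stood at 1 edge of their group for every member. AB1 non-responder 7 was the highest of the AB1 non-responders for all 6 genes, and AB1 responder 12 the lowest of the AB1 responders for all 6. Renca non-responder 3 was the highest and Renca responder 1 the lowest of their groups for all 6. AB1 non-responder 7 also had the highest summed pan-leukocyte markers (2994 CPM) and NK cell markers (159.8 CPM) of its group, and AB1 responder 12 the lowest of its group (2890 and 124 CPM). Neither was at the edge in T cell markers. AB1 non-responder 7 had 124 CPM against a group high of 161, and AB1 responder 12 had 204 CPM against a group low of 185. Renca non-responder 3 had the highest pan-leukocyte, T cell and NK cell sums of its group (2548, 255 and 89.4 CPM). Renca responder 1 was not lowest in any of these sums, at 2209, 236 and 70.3 CPM against group lows of 2054, 179.8 and 48.0 CPM. AB1 non-responder 7 is also the library with high keratinocyte markers. The part of cell content in these libraries' values was not tested. The coefficient of variation of the 6 members lay between 17.1% and 20.3% in AB1 responders and between 59.2% and 73.8% in AB1 non-responders. In Renca it lay between 21.5% and 29.2% in responders and between 40.9% and 57.4% in non-responders. The edge libraries carried part of this spread. Without AB1 responder 12 the range was 5.21% to 8.21%, and without AB1 non-responder 7 it was 50.7% to 66.6%. Without Renca responder 1 it was 19.1% to 26.3%, and without Renca non-responder 3 it was 23.0% to 35.7%.

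Together the 6 members took 0.734% ± 0.134 (SD, n = 12) of the library for AB1 responders and 0.323% ± 0.212 for AB1 non-responders. For Renca the shares were 0.291% ± 0.0755 with response and 0.154% ± 0.0775 without. The lowest AB1 non-responder gave 0.0905% of its counts to these genes and the highest 0.794%.

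Dividing by exon length made levels comparable between genes. In AB1 responders the mean was 640 ± 123 CPM per kilobase of exon for Igtp (SD, n = 12), 614 ± 123 for Tgtp2 and 551 ± 112 for Tgtp1. The means of these neighbours did not differ beyond the spread between mice. Within libraries Igtp exceeded Tgtp2 in 9 of 12. Tgtp2 exceeded Tgtp1 in 12 of 12, but the counts do not separate this pair. Their raw counts were near equal, and exon lengths of 3205 bases (Tgtp1) and 2938 bases (Tgtp2) set that order in every group. Ifi47 followed at 334 ± 63.3, below Tgtp1 by more than the SD of either. Irgm2 at 201 ± 34.3 and Irgm1 at 197 ± 34.2 CPM per kilobase came last and did not differ from each other beyond the spread between mice, with Irgm2 the higher in 11 of 12 libraries. The order was different in Renca responders, where Tgtp2 (261 ± 72.4), Tgtp1 (240.3 ± 67.4) and Igtp (209.7 ± 61.3) led and Irgm2 (80.9 ± 17.4), Irgm1 (79.3 ± 17.8) and Ifi47 (70.5 ± 19.3) formed a lower group. Within libraries Tgtp1 exceeded Igtp in 12 of 12 Renca responders and Irgm1 exceeded Ifi47 in 12 of 12. Ifi47 thus stood above both Irgm genes in AB1 and last in Renca, and non-responders of each tumour showed Ifi47 at the same place (144 ± 86.6 in AB1 and 40.3 ± 18.2 in Renca). Exon length was the union over all annotated transcripts, so it overstates the length of genes with many isoforms.

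In AB1, all 6 members were higher in responders than in non-responders. Among all 15859 genes tested, 27.7% were called higher, so calls were common in this comparison, and the sizes carry more than the count. Tgtp1 had a log2 fold change of 1.42 ± 0.32 (SE, 12 against 12 mice, adjusted p = 0.000585, edgeR's quasi-likelihood test with Benjamini-Hochberg adjustment over all genes) and Tgtp2 one of 1.38 ± 0.32 (adjusted p = 0.000665, edgeR). The other effector, Ifi47, had 1.26 ± 0.27 (adjusted p = 0.000292, edgeR). The regulators rose by 1.21 ± 0.32 for Igtp, 1.09 ± 0.26 for Irgm1 and 1.03 ± 0.28 for Irgm2 on the log2 scale, with adjusted p in edgeR of 0.00262, 0.000949 and 0.00286. The median of all tested genes was -0.04. On the first flow cell alone (5 against 5 mice) all 6 passed, at 1.39 to 1.81. On the second (7 against 7) the members stood at 0.81 to 1.17 and 3 of 6 passed, with adjusted p from 0.0246 to 0.0733 in edgeR.

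In Renca all 6 members were again higher in responders, where 11.1% of the 15778 genes tested were called higher. Tgtp1, Tgtp2 and Igtp stood at 1.03 ± 0.23, 1.02 ± 0.23 and 1.02 ± 0.23 on the log2 scale (SE, 12 against 12 mice), with adjusted p of 0.00533, 0.00533 and 0.00538 in edgeR. Ifi47 rose by 0.81 ± 0.19, Irgm2 by 0.80 ± 0.17 and Irgm1 by 0.76 ± 0.17, with adjusted p of 0.00678, 0.00409 and 0.00533 in edgeR. The median over all tested genes was -0.01. The Renca calls depended on the flow cell and on RNA purity terms. On the first flow cell alone (6 against 6) the log2 fold changes were 0.57 to 0.77 and none of the 6 passed in edgeR (adjusted p 0.283 to 0.337). No gene passed there in edgeR, although 2803 genes had an unadjusted p under 0.05, and DESeq2 called 179 genes and no member. On the second flow cell all 6 passed, at 0.95 to 1.29. The absorbance ratio 260/230 of the RNA was 1.99 ± 0.147 in Renca responders and 2.12 ± 0.108 in non-responders (SD, n = 12 each). With this ratio and 260/280 as covariates the members stood at 0.59 to 0.82 and none passed (adjusted p 0.0654 to 0.0969 in edgeR), while the genes called fell from 3095 to 203.

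**Figure D2:**
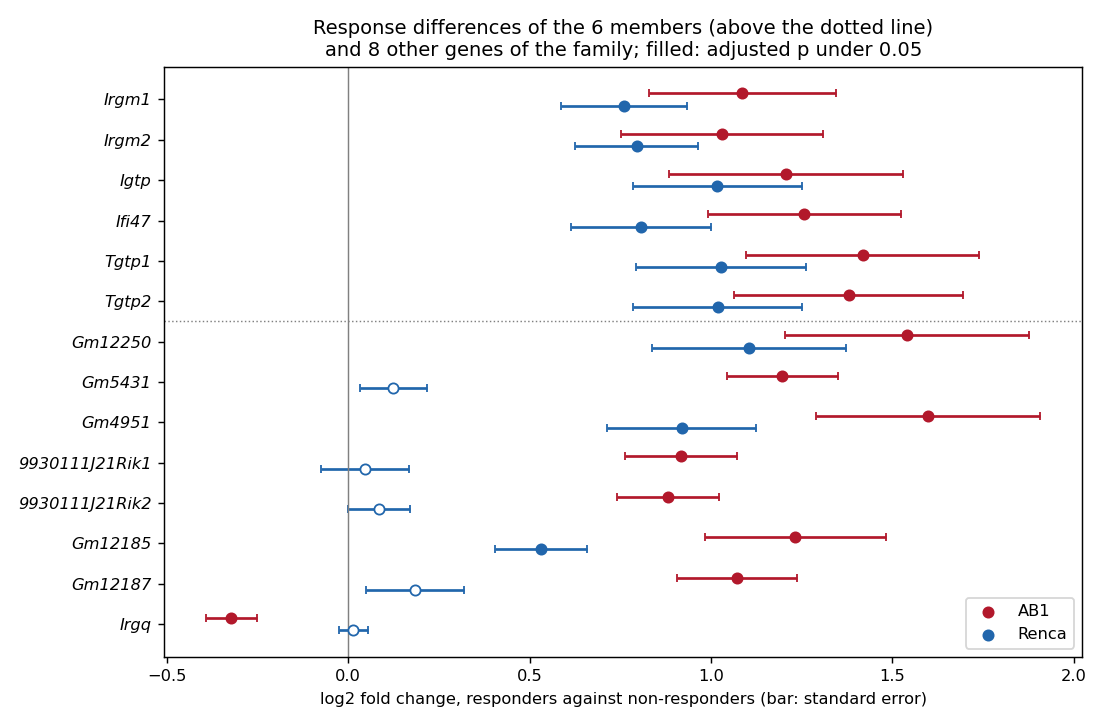
Points are log2 fold changes of responders against non-responders, with bars of 1 standard error, for the 6 members and 8 other genes of the family in AB1 (red) and Renca (blue). All 6 members lie between 0.76 and 1.42 and pass in both tumours, while 5 of the other genes are unfilled in Renca.

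The response effect of the members did not pass a test of difference between the tumours. AB1 minus Renca was 0.49 ± 0.33 for Ifi47, 0.43 ± 0.40 for Tgtp1, 0.40 ± 0.39 for Tgtp2, 0.36 ± 0.31 for Irgm1, 0.27 ± 0.33 for Irgm2 and 0.23 ± 0.40 for Igtp on the log2 scale. Adjusted p in edgeR ran from 0.235 to 0.677, and 41.6% of the 16920 genes tested passed this comparison. A p that misses the threshold does not show equal effects. The difference with 2 SE on either side reached from -0.57 to 1.03 for Igtp and from -0.17 to 1.14 for Ifi47. Leaving out Renca non-responder 3 moved the difference of Igtp to -0.023 and the members' highest to 0.30. Leaving out AB1 non-responder 7 gave 0.44 to 0.66 and leaving out AB1 non-responder 3 gave 0.46 to 0.65. With the RNA purity ratios as covariates the 6 differences were 0.61 to 0.81 and none passed (adjusted p 0.0696 to 0.207 in edgeR).

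Between the tumours, every member was higher in AB1. Among responders Ifi47 was higher by 2.25 ± 0.24 on the log2 scale and Igtp by 1.61 ± 0.28. Irgm1 and Irgm2 were both higher by 1.31 (SE 0.22 and 0.23), Tgtp2 by 1.24 ± 0.28 and Tgtp1 by 1.20 ± 0.28, and the highest adjusted p in edgeR was 0.000162. Among non-responders the log2 differences were 1.84 ± 0.24 for Ifi47, 1.47 ± 0.28 for Igtp, 1.12 ± 0.23 for Irgm2, 1.04 ± 0.22 for Irgm1, 0.93 ± 0.27 for Tgtp2 and 0.86 ± 0.28 for Tgtp1. All 6 passed there too, with a highest adjusted p of 0.00495 in edgeR. Of all 16509 genes tested, 38% were called higher in AB1 among responders and 39.3% among non-responders. Between non-responders of the first flow cell of each tumour alone, 3 of 6 members passed, at 0.46 to 1.48. Tumour line, day of removal and flow cell cannot be told apart in these comparisons.

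Ratios between members within a library, which no scaling of the library changes, showed that the genes did not move by equal factors. Of 15 member pairs, 13 had a log2 ratio that differed between AB1 responders and non-responders and 10 did so in Renca (two-sided permutation test with 100000 resamples, Benjamini-Hochberg adjustment over 60 tests). This comparison was added after the data had been seen, and pairs that share a gene, or that differ only in Tgtp1 or Tgtp2, are not independent. Both counts include the pair of Tgtp1 and Tgtp2, which the counts do not separate. Its ratio differed by 0.045 in AB1 and 0.012 in Renca on the log2 scale, so very small differences passed too. How many pairs of other genes would pass was not examined, so the counts are not particular to the members. Of all single genes tested, 9577 of 15859 were called in AB1 and 3095 of 15778 in Renca. Every passing pair had the same direction on both flow cells.

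The ratio of the regulators Irgm1 and Irgm2 passed in no comparison. On the log2 scale it was 0.62 ± 0.07 with response and 0.62 ± 0.11 without it in AB1, and 0.62 ± 0.06 and 0.65 ± 0.09 in Renca (SD, n = 12 each). Adjusted permutation p over the 4 comparisons ran from 0.356 to 0.950. Against the effector Tgtp1, both ratios were lower in responders. The log2 ratio of Irgm1 to Tgtp1 was -0.61 ± 0.11 for responders and -0.17 ± 0.25 for non-responders of AB1 (adjusted permutation p = 7.83e-05). In Renca it was -0.72 ± 0.10 in responders and -0.39 ± 0.21 in non-responders (adjusted permutation p = 0.000124). Against the effector Ifi47, both ratios differed by -0.17 in AB1 and passed (adjusted permutation p = 0.00137 and 0.00331). In Renca these differences were -0.04 and -0.01 and did not pass (adjusted permutation p = 0.425 and 0.908). Ifi47 to Tgtp1 differed by response by -0.27 in AB1 and -0.29 in Renca (adjusted permutation p = 0.000771 and 0.000107). The ratios thus did not divide by loop class alone. Igtp, the third regulator by its loop, went with the larger rises. The log2 ratio of Irgm1 to Igtp differed between responders and non-responders by -0.26 in AB1 and by -0.30 in Renca, with adjusted permutation p of 0.00567 and 0.00031. On the first flow cell alone the AB1 difference was -0.26 and did not pass (adjusted exact permutation p = 0.170). Igtp to Tgtp1 stood at -0.87 ± 0.04 for responders and -0.84 ± 0.07 for non-responders of Renca, a difference that did not pass (adjusted permutation p = 0.313). In AB1 it was -0.44 ± 0.07 in responders and -0.26 ± 0.11 in non-responders and passed (adjusted permutation p = 0.000107).

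The ratio of Ifi47 to Tgtp1, among others, set the tumours apart. It was -1.09 ± 0.08 in AB1 responders and -2.14 ± 0.08 in Renca responders, a log2 difference of 1.05. In non-responders it was -0.82 ± 0.25 in AB1 and -1.85 ± 0.21 in Renca, a difference of 1.03. The 12 AB1 and 12 Renca libraries did not overlap in either response class, and the adjusted permutation p of 3.75e-05 came from the smallest p that the resamples can give, 1e-05. Such separation was common among the members: 9 of 15 pairs did not overlap between tumours in responders and 7 of 15 in non-responders. The pair of Tgtp1 and Tgtp2, which the counts do not separate, was among them in both classes. Its log2 differences were -0.040 in responders and -0.074 in non-responders. How often ratios of gene pairs outside the members separate these tumours was not examined. The ratio of Irgm1 to Tgtp1 stood 0.11 apart between tumours in responders and 0.22 in non-responders on the log2 scale. Both passed over all libraries (adjusted permutation p = 0.0232 and 0.0386). Neither passed on the first flow cells alone (adjusted exact permutation p = 0.462 and 0.359). On the second flow cells the difference passed in responders and not in non-responders (adjusted exact permutation p = 0.0291 and 0.115).

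**Figure D3:**
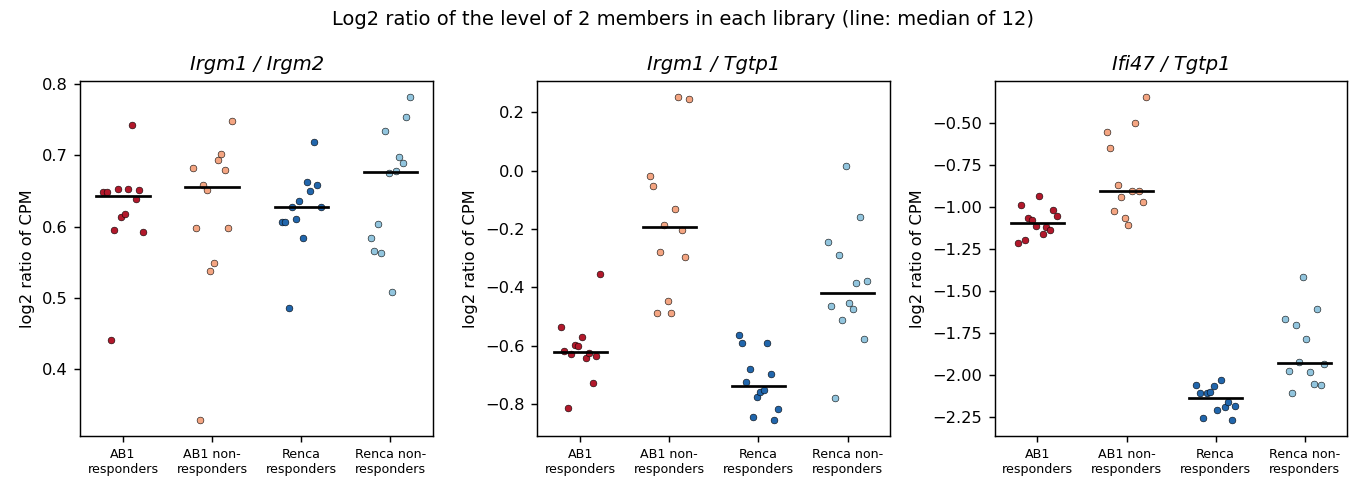
Each point is the log2 ratio of the CPM of a pair of members in 1 library, in columns by group of 12 mice, with the group median as a line. The ratio of Irgm1 to Irgm2 has group means of 0.62 to 0.65, Irgm1 to Tgtp1 is lower in responders of both tumours, and Ifi47 to Tgtp1 is about 1 log2 unit lower in Renca.

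Other genes of the family did not all follow. Of 11 further names, 9 were rows of the table and 8 passed the filter on low counts. In AB1 7 of these were higher in responders and 1 lower, with a median log2 fold change of 1.13, against 27.7% higher and 32.7% lower among all genes tested. In Renca 3 were higher and 5 were not called, with a median of 0.15. Gm12250, known as the effector Irgb10 although GENCODE M21 annotates a processed pseudogene, rose by 1.54 ± 0.34 in AB1 and 1.10 ± 0.27 in Renca (adjusted p = 0.000421 and 0.00705 in edgeR). Gm4951, a gene outside chromosome 11, rose by 1.60 ± 0.31 and 0.92 ± 0.21, with adjusted p of 0.000119 and 0.00496 in edgeR.

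Most of the tandem genes of the family were not called in Renca. Gm5431, 9930111J21Rik1, 9930111J21Rik2 and Gm12185 each had 2 lysine-type loops in 1 coding sequence, the first at codon 77 in the first 3 of them and at codon 68 in Gm12185. Gm5431 ran from 60.2 through 135 to 162 CPM in AB1 responders and from 36.4 through 60.7 to 92.3 CPM in AB1 non-responders, a log2 fold change of 1.20 ± 0.15. In Renca responders it ran from 21.9 through 33.5 to 50.8 CPM and in non-responders from 26.1 through 30.4 to 38.0 CPM, with a log2 fold change of 0.12 ± 0.09 (adjusted p = 0.365 in edgeR). The difference of the response effect passed for this gene, at 1.11 ± 0.18 (adjusted p = 4.5e-06 in edgeR). Gm12185 was the third further gene called in Renca, at 0.53 ± 0.13 (adjusted p = 0.00657 in edgeR), with 12 of 12 responders above the median of the non-responders, and it stood at 1.23 ± 0.25 in AB1. In Renca 9930111J21Rik1 and 9930111J21Rik2 stood at 0.05 ± 0.12 and 0.09 ± 0.09. The difference also passed for 9930111J21Rik1 (0.91), 9930111J21Rik2 (0.83), Gm12185 (0.74) and the pseudogene Gm12187 (0.92). Irgq, a distant relative, was lower in AB1 responders by a log2 value of -0.32 ± 0.07 and stood at 0.01 ± 0.04 in Renca. Shares of 83.2% and 59.8% of the 50-base stretches of 9930111J21Rik1 and 9930111J21Rik2 occur in another gene, so their counts are uncertain. The counts of Gm12185 are uncertain too, because it shares 223 exon bases on the same strand with Tgtp1. In Renca responders the mean was 28.7 CPM for Gm12185 and 770 CPM for Tgtp1. The part of Tgtp1 reads in the rise of Gm12185 was not tested.

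The genes whose levels most resembled those of the members were almost all guanylate-binding proteins, large GTPases that act beside the immunity-related GTPases on pathogen vacuoles. Over the 48 libraries, with the mean of each group removed, Pearson's r with the mean log2 CPM of the members was 0.993 for Gm12250, 0.992 for Gbp2, 0.992 for Gbp2b, 0.991 for Gm43302, 0.990 for Gbp3, 0.988 for Gbp6, 0.986 for Gbp10 and 0.986 for Gbp4. These points share libraries and depth, and near-identical members of the guanylate-binding family share reads. Among the 11 guanylate-binding proteins, 11 were higher in responders in AB1 and 11 in Renca, with median log2 fold changes of 1.62 and 1.02. Gbp5, Gbp8 and Gbp2 stood at 1.95 ± 0.36, 2.11 ± 0.38 and 1.48 ± 0.33 in AB1, and at 1.02 ± 0.26, 0.95 ± 0.23 and 0.98 ± 0.24 in Renca.

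Genes of the interferon gamma signalling path moved less than the members. All 10 tested were higher in AB1 responders, with a median log2 fold change of 0.67, and 7 of 10 in Renca, with a median of 0.25. The receptor chain Ifngr2 rose by 0.53 ± 0.07 in AB1 and 0.24 ± 0.04 in Renca, and the kinase Jak1 by 0.36 ± 0.05 and 0.12 ± 0.02. Irf8, a transcription factor of myeloid cells that interferon gamma induces, rose by 1.51 ± 0.19 and 0.57 ± 0.12. Ptpn2, a phosphatase that dampens the path, rose by 0.56 ± 0.07 in AB1 and stood at 0.10 ± 0.04 in Renca (adjusted p = 0.100 in edgeR).

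Among 20 tested genes of the type I interferon response, 20 were higher in AB1 responders (median 0.71) and 13 in Renca responders (median 0.45). Zbp1, a sensor of unusual nucleic acids, rose by 1.34 ± 0.24 in AB1 and 0.64 ± 0.16 in Renca. Rsad2, the antiviral protein viperin, rose by 0.72 ± 0.21 and 0.81 ± 0.20. Oas3, which makes the messenger that activates RNase L, rose by 1.33 ± 0.22 in AB1 and stood at 0.27 ± 0.12 in Renca (adjusted p = 0.116 in edgeR).

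Autophagy genes, listed because Irgm proteins are tied to that process, changed by small amounts where they changed. Of 12 tested, 5 were higher in AB1 (median log2 fold change 0.08), and in Renca Gabarap was higher (0.06 ± 0.02) and Becn1 lower (-0.06 ± 0.02), where 8.52% of all genes tested were called lower. In AB1 Becn1 rose by 0.26 ± 0.04, Atg3 by 0.30 ± 0.04 and Atg7 by 0.35 ± 0.06.

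Leukocyte markers moved with the members. Of 9 pan-leukocyte, 9 T cell and 6 NK cell markers tested, all were higher in responders of each tumour, with median log2 fold changes of 1.34, 1.87 and 2.04 in AB1 and 0.39, 0.84 and 0.78 in Renca. Neutrophil markers were higher for 5 of 5 in AB1 (median 2.14) and 2 of 5 in Renca (median 0.44), and macrophage markers for 7 of 8 (median 0.95) and 5 of 8 (median 0.28). Fibroblast markers were lower in AB1 responders for 4 of 5 (median -0.85) and called for 0 of 5 in Renca. Renal tubule markers, which mark the tumour line in Renca, were lower in Renca responders for 4 of 5 (median -0.24). Summed T cell markers ran from 185 to 487 CPM for AB1 responders and from 26.3 to 161 CPM for AB1 non-responders. For Renca they ran from 179.8 to 418 CPM with response and from 84.7 to 255 CPM without. Summed NK cell markers ran from 124 to 403 CPM and from 22.3 to 159.8 CPM in AB1, and from 48.0 to 134 CPM and from 27.5 to 89.4 CPM in Renca, responders first. Summed macrophage markers ran from 3039 to 4884 CPM with response and 1859 to 3024 without it in AB1, and from 3305 to 4436 and 2937 to 3812 in Renca. Apart from the renal tubule marker Umod, at 0 in every library, no marker of these lists was at 0 in a whole group. These are whole tumours, so more cells of a type and more RNA per cell cannot be told apart, and the part of cell content in the members' differences was not tested.

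Leukocyte markers and members did not run in parallel in every comparison. The response effect was called larger in AB1 for 9 of 9 pan-leukocyte, 8 of 9 T cell and 6 of 6 NK cell markers. It was called larger for 0 of 6 members, where 22.9% of all genes tested were called larger in AB1. The members' estimates were also larger in AB1, by 0.23 to 0.49 on the log2 scale (SE 0.31 to 0.40), but did not pass. Whether the members' differences were smaller than those of the markers was not tested. Between non-responders of the 2 tumours, T cell markers were lower in AB1 for 6 of 9 and higher for none (median log2 difference -0.86), and macrophage markers were lower for 6 of 8, where 37% of all genes tested were called lower. Neutrophil markers ran with the members there, higher in AB1 for 4 of 5 (median 2.94), where 39.3% of all genes tested were called higher. NK cell markers were higher for 3 of 6 (median 0.56) and pan-leukocyte markers for 4 of 9 (median 0.18), not far from that share. No marker of these lists was called lower. In the same comparison all 6 members were higher in AB1. Median sums of T cell markers there were 103 CPM in AB1 and 149 CPM in Renca.

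**Figure D4:**
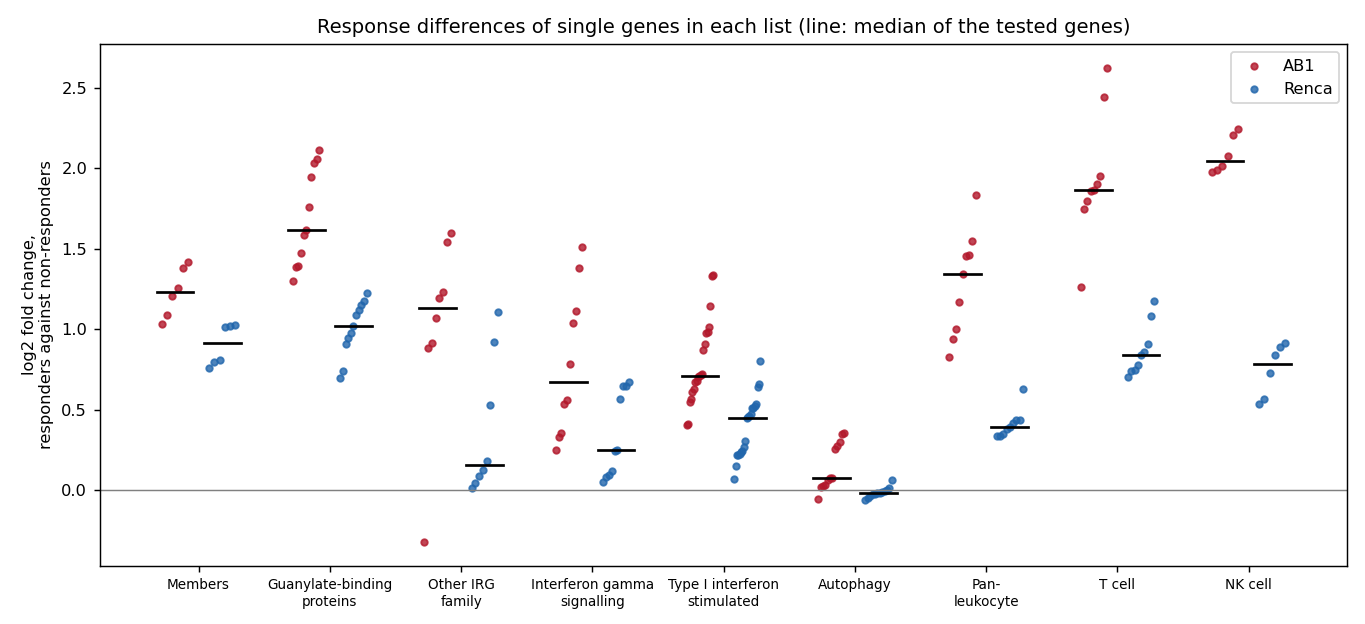
Each point is the log2 fold change of responders against non-responders for 1 tested gene of a list, in AB1 (red) and Renca (blue), and black lines are list medians. Members and guanylate-binding proteins lie above 0 in both tumours, the other family genes divide in Renca, and autophagy genes lie near 0.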

How the data were processed

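Gene-level RNA-seq counts from 48 tumours were analysed. The deposited values are raw counts per gene, whole numbers that the authors did not normalise. The submitters' processing notes list HISAT2 2.0.4, StringTie 1.3.0 and bcl2fastq 2.18.0.12, and human builds although the identifiers are mouse. How counts were made, with which strand setting and mouse build, is not given in the sources used here. Coordinates are from GENCODE M21 (GRCm38), matched by 39461 of 39637 identifiers, and the authors' build may be another. Library totals of 16.4 to 27.8 M counts (M for mega) leave little counting error at the members' levels.

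Each tumour was fitted separately in edgeR 4.0.16 (R 4.3.3) with TMM scaling, filterByExpr, flow cell as a term and the quasi-likelihood F test, with Benjamini-Hochberg adjustment at 0.05 over all genes. The difference of the response effect was fitted over all 48 libraries with flow cell terms, and tumours were compared in a fit of the 4 groups. The standard error is the log2 fold change divided by the square root of F. Log2 CPM for likeness used a prior count of 2. Alternatives used RLE or upper quartile scaling, no filter, DESeq2 1.42.0, other terms, single flow cells and libraries left out.

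Per the labels, mice of 1 tumour with the same replicate number were sequenced in 1 lane. Replicates 9 to 12 of each tumour all shared 1 lane, so a number is not a lane of its own there. Correlations of the deviations of same-numbered mice ran from -0.118 to 0.494. Coding sequences were aligned globally. Members, lists and tests were chosen with earlier results of these data known. The genes named are all members, the tested family genes, the 3 smallest p in each other list and tumour, and the 8 genes most like the members. Some genes that this rule took are not reported here. The pair ratios were added after the data had been seen. The scripts were tested on simulated data.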

Additional observations from a re-analysis of the deposited data

Results flagged for a closer look

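The response effect, responders against non-responders, passed a test of difference between the tumours (edgeR's quasi-likelihood test, adjusted over all genes, 48 libraries) for 18 of the genes named beside the members and for none of the 6 members. Within the family the difference, AB1 minus Renca on the log2 scale, was 1.11 for Gm5431, 0.91 for 9930111J21Rik1, 0.83 for 9930111J21Rik2, 0.92 for Gm12187, 0.74 for Gm12185 and -0.30 for Irgq. Between 19.5% and 83.2% of the 50-base stretches of these genes other than Irgq occur in another gene. Among guanylate-binding proteins, Gbp8 differed by 1.20, and its reads can be shared with near-identical genes. In the interferon gamma path the differences were 0.98 for Irf8, 0.50 for Ptpn2, 0.33 for Ifngr2 and 0.27 for Jak1. In the type I list they were 1.10 for Oas3, 0.80 for Oasl1 and 0.73 for Zbp1. Autophagy genes differed by 0.39 for Atg7, 0.35 for Becn1, 0.35 for Atg3 and 0.24 for Gabarap. In this comparison 41.6% of all genes tested passed.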

How the results depend on the processing

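The members' calls held in most alternatives. Over single members, 832 of 858 values kept their direction and side of the threshold, 25 kept the direction and lost the call, and 1 changed sign, Igtp in the difference between tumours without Renca non-responder 3, where leaving out each library gave -0.023 to 0.47. In AB1, 6 of 6 were called except on the second flow cell alone (3 in edgeR, 6 in DESeq2). On the first flow cell DESeq2 called 5 and gave no adjusted p for the sixth member. In Renca, 6 of 6 were called except with RNA purity covariates (0) and on the first flow cell alone (0 in edgeR and 0 in DESeq2). AB1 minus Renca in non-responders called 6 except on the first flow cells alone (3). Leaving out each library in turn kept 6 of 6 in all 24 fits of each tumour, with log2 fold changes of 0.94 to 1.65 in AB1 and 0.71 to 1.28 in Renca, and 0 of 6 in all 48 fits of the difference. With the replicate block, which pairs same-numbered mice that shared a lane, the counts were 6, 6 and 0, with log2 fold changes of 1.28 to 1.72 in AB1, 0.83 to 1.17 in Renca and 0.44 to 0.61 for the difference, and no call changed. Pair ratios passing on the first flow cell alone numbered 6 for the Renca response and 8 between tumours in non-responders, against 10 and 13 over both flow cells. For the AB1 response they fell from 13 to 9 on the first flow cell and 12 on the second. The cause of these changes was not tested, but each single flow cell holds fewer mice. Across all genes the share of higher calls moved with scaling: in the difference between tumours it was 55.1% with TMM, 47.5% with RLE and 43.6% with upper quartile scaling, in Renca 56.5% and 45.4% with TMM and upper quartile. Upper quartile scaling also moved the median of all genes in AB1 to -0.11, and the members' directions did not change with any scaling. Fitting all 48 libraries together called 1040 genes in Renca instead of 3095. Within flow cells, AB1 had 5816 and 7725 genes called and Renca 0 and 1253.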
